A study of Mus musculus with 12 samples.

Results

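The mouse mitochondrial genome encodes 37 genes, and all 37 were present among the 54532 genes of the expression table, chosen as every gene placed on chromosome MT. They comprise 13 protein-coding genes, 2 rRNA genes and 22 tRNA genes, and their names, positions and strands were the same in the GENCODE M21 annotation of GRCm38. The measurements are RNA sequencing of hyperplastic mammary glands from female FVB/N mice of the MIC model, in which doxycycline induces polyoma middle T, an oncogene, and Cre recombinase in mammary epithelial cells. The genotype labels were MIC WT (4 libraries), MIC Stat3 ko (4) and MIC Chi3l1 ko (4), 3 groups in all, and all mice were given doxycycline at 2 mg/ml in the drinking water, with titles that carry 2 wk. The glands hold many cell types besides the epithelium in which the MIC transgenes act, and the exact alleles and ages are not given in the sources used here. STAT3 is a transcription factor downstream of cytokine receptors and Chi3l1 is a secreted chitinase-like protein, and the series concerns how this protein relates to neutrophil extracellular traps and T cells. The labels do not state whether the libraries of a group come from separate mice, and p-values therefore cover only the spread among these libraries, which may be technical. Values listed for a group follow its libraries 1 to 4.

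Mitochondrial DNA is transcribed on both strands into long precursors that span nearly the whole circle. tRNAs sit between most of the mRNAs and rRNAs, and their excision by RNase P and ELAC2 releases the neighbouring transcripts, most of which then receive poly(A) tails. The 13 mRNAs encode core subunits of respiratory complexes I, III and IV and of ATP synthase, the rRNAs and tRNAs serve their translation inside the organelle, and all other mitochondrial proteins come from nuclear genes.

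The tRNA genes that carry the called differences and the most reads are printed here from the GENCODE M21 transcripts (GRCm38), 5′ to 3′ on the coding strand, with the anticodon in capitals. They are mt-Te for glutamate (chromosome MT, 14071 to 14139, minus strand), mt-Tc for cysteine (5192 to 5257, minus strand), mt-Tp for proline (15356 to 15422, minus strand) and mt-Th for histidine (11546 to 11612, plus strand).
mt-Te: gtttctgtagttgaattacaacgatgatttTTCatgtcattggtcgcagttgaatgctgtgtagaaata
mt-Tc: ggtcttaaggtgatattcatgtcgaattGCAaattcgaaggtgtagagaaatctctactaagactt
mt-Tp: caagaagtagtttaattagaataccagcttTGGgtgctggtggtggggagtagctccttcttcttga
mt-Th: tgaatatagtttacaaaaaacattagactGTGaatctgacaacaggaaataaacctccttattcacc
mt-Te lies next to mt-Nd6 on the same strand with 0 bases between them, and 5 bases separate it from mt-Cytb on the opposite strand. With a length of 69 bases, 1 read in this gene was worth 0.583 to 0.869 FPKM (fragments relative to gene length and library total), depending on the library. Counts stand beside the FPKM of tRNA genes for that reason. Reads of a mature tRNA, of its precursor and of transcripts from the opposite strand cannot be told apart here.

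Several mitochondrial genes have near-identical nuclear copies, which bears on every level below. The copies followed here are 7 annotated pseudogenes on chromosome 1, between 24611535 and 24616197 on the minus strand. They align without gaps to 7 mitochondrial genes between MT positions 6381 and 11042, a span of 4662 bases, in the same order and with the same spacing to within 1 base. mt-Co2 and Gm28661 were identical over 681 aligned bases, mt-Atp6 and Gm10925 over 678, mt-Co3 and Gm28437 over 783, and mt-Nd4l and Gm10222 over 294. mt-Nd3 and Gm28438 differed at 1 of 345 bases. Their first 60 bases are shown, with the differing base in capitals, T3C counted from the first base of mt-Nd3.
mt-Nd3: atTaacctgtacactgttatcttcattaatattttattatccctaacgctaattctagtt
Gm28438: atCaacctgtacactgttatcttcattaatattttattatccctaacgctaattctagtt
The first 876 bases of mt-Nd4 were identical to Gm28439, and the last 492 bases of mt-Co1 matched Gm29216 at 486 positions. Counted in windows of 50 bases that also occur exactly in an annotated nuclear transcript, the share was 98.0% to 100% for mt-Co2, mt-Atp6, mt-Co3, mt-Nd3 and mt-Nd4l. It was 62.2% for mt-Nd4, 51.1% for mt-Co1, 8.19% for mt-Nd2, 7.61% for mt-Nd5 and 1.04% for mt-Rnr2. It was 0% for mt-Rnr1, mt-Nd1, mt-Nd6, mt-Cytb, mt-Atp8 and the 22 tRNA genes. These shares also include pseudogenes on chromosome 2. There Gm13340 held 27.5% of the windows of mt-Co1, beside 28.7% in Gm29216 on chromosome 1. Gm13341 held 35.3% of those of mt-Co2, and Gm13339 the 8.19% of mt-Nd2. Only annotated transcripts were searched. No gene is annotated on chromosome 1 opposite mt-Atp8 or the 5 tRNA genes inside the span, apart from bases shared with a neighbouring gene. mt-Atp8 shares its last bases with mt-Atp6, where Gm10925 is identical, and this stretch is shorter than a window of 50 bases. How the authors' counting treated reads that match several places is not given in the sources used here, so the levels of the genes with shared windows are uncertain.

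Levels within the mitochondrial genome differed by orders of magnitude on the FPKM scale, which is per length (plot of levels in genome order). mt-Co1, the catalytic subunit of complex IV, was highest in WT at 2528 ± 632 FPKM (SD, n = 4), followed by mt-Nd1 of complex I at 1765 ± 345 and mt-Cytb of complex III at 1688 ± 303. mt-Co1 exceeded mt-Nd1 in 12 of 12 libraries, whereas mt-Nd1 exceeded mt-Cytb in 5 of 12, so the order of the latter pair was not fixed. Below them stood mt-Nd2 at 872 ± 138, mt-Nd4 at 659 ± 89.4, mt-Nd6 at 607 ± 106 and mt-Nd5 at 438 ± 112, an order that held in 12 of 12 libraries although neighbouring WT ranges overlapped. The tRNA gene mt-Tp came next at 219 ± 39.9, ahead of mt-Rnr1 at 140 ± 20.3 in 11 of 12 libraries and of mt-Rnr2 at 65.8 ± 12.8. The 5 genes with nearly all windows shared were far lower than the other protein-coding genes except mt-Atp8, from 28.01 ± 7.35 for mt-Co2 and 22.1 ± 2.73 for mt-Atp6 to 18.6 ± 5.67 for mt-Co3, 5.43 ± 0.663 for mt-Nd3 and 4.50 ± 1.38 for mt-Nd4l. mt-Co2 stood at 0.00847 to 0.0140 times mt-Co1 over the 12 libraries, although both encode subunits of the same enzyme.

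**Figure D1:**
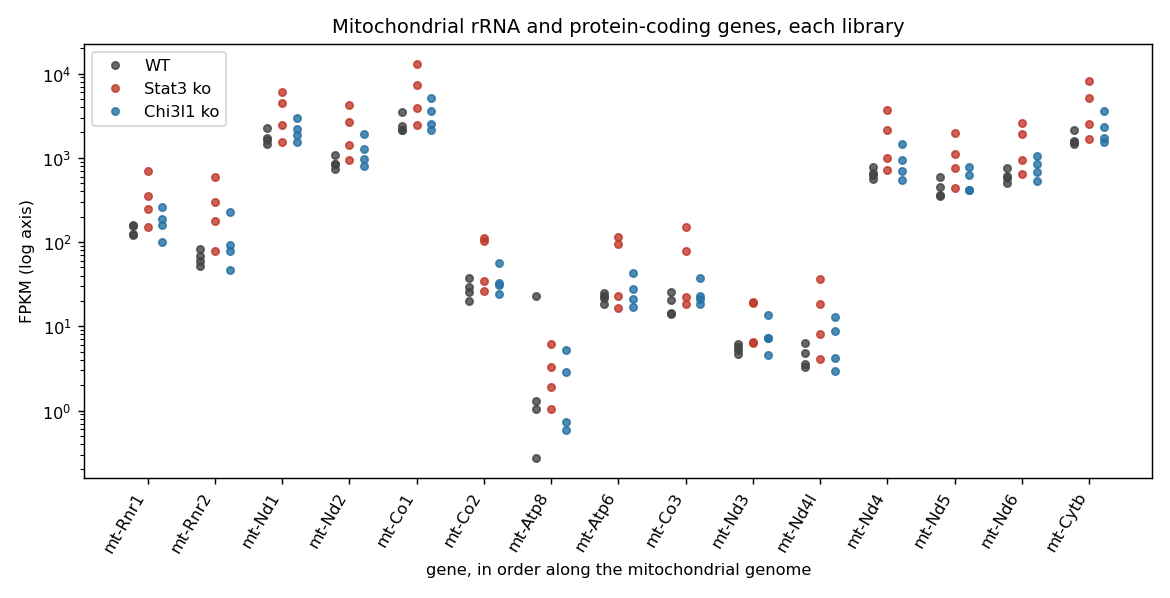
FPKM (log axis) of the 2 rRNA and 13 protein-coding genes in order along the mitochondrial genome, with 1 point per library (dark grey WT, red Stat3 ko, blue Chi3l1 ko). The genes from mt-Co2 to mt-Nd4l sit far below their neighbours in every group, and the highest point of every gene but mt-Atp8 is a Stat3 ko library.

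The chromosome 1 copies of 4 of these 5 genes held FPKM within 3-fold of them, and that of mt-Nd3 held more. mt-Co2 was 1.09 to 1.67 times Gm28661, mt-Co3 was 0.726 to 1.81 times Gm28437 and mt-Atp6 was 0.632 to 1.28 times Gm10925 over the 12 libraries. mt-Nd4l was 0.340 to 0.911 times Gm10222, and mt-Nd3 was lower than Gm28438 throughout, at 0.139 to 0.274 times. Adding each copy to its gene left the block low, with medians of 57.5 FPKM for mt-Co2 plus Gm28661, 54.5 for mt-Atp6 plus Gm10925 and 45.6 for mt-Co3 plus Gm28437. For the partly shared pairs the mitochondrial gene held nearly all of the signal, with mt-Co1 at 184 to 354 times Gm29216 and mt-Nd4 at 113 to 175 times Gm28439. The copies followed the same libraries as the mitochondrial genes: Gm28661 stood at 18.2, 19.3, 23.2 and 30.8 FPKM in WT, 83.5, 61.3, 24.3 and 23.0 among Stat3 ko and 19.3, 46.9, 26.1 and 25.5 among Chi3l1 ko libraries. The high values of Gm28661 were in Stat3 ko 1, Stat3 ko 2 and Chi3l1 ko 2.

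**Figure D2:**
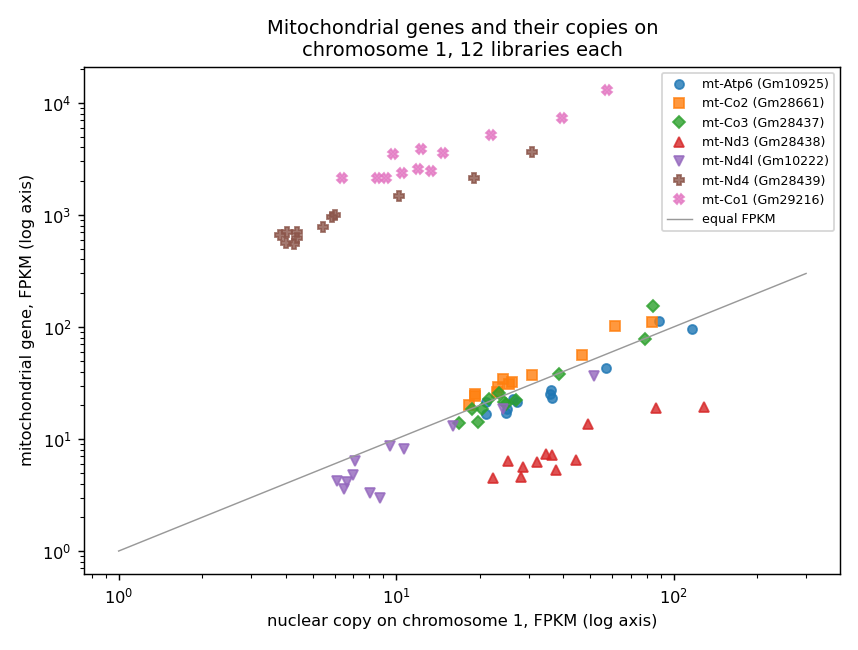
FPKM of 7 mitochondrial genes (vertical, log axis) against the FPKM of their copies on chromosome 1 (horizontal, log axis), with 12 libraries per pair and a line at equal FPKM. The 5 genes copied nearly whole lie close to or below the line, while mt-Co1 and mt-Nd4, copied in part, lie at least 113-fold above their copies.

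Mitochondrial genes took more of the counts in some Stat3 ko libraries than in any WT library (plot of the share by library). The share of all gene counts was 1.002%, 1.02%, 1.15% and 1.51% in WT, 4.79%, 3.37%, 1.88% and 1.15% among Stat3 ko and 1.03%, 2.22%, 1.21% and 1.61% among Chi3l1 ko libraries. Stat3 ko 1, 2 and 3 and Chi3l1 ko 2 and 4 lay above every WT library, and Stat3 ko 4 lay inside the WT range, so the groups overlapped. The 13 mRNAs made up 96.5% to 98.0% of the mitochondrial counts in every library, the rRNAs 1.80% to 3.11% and the tRNAs 0.173% to 0.372%. The 9 genes encoded on the minus strand, among them mt-Nd6, held 2.69% to 3.39% of mitochondrial counts, with no group apart from the others. In bulk glands, more cells rich in mitochondria and more mitochondrial RNA per cell cannot be told apart. Libraries held 16217143 to 22607123 counts, and the targeted genes fitted the labels, with Stat3 at 12.2 to 18.7 FPKM in Stat3 ko against 46.2 to 49.7 in WT, and Chil1, the gene of Chi3l1, at 0 to 0.0323 FPKM in Chi3l1 ko against 107 to 212 in WT.

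**Figure D3:**
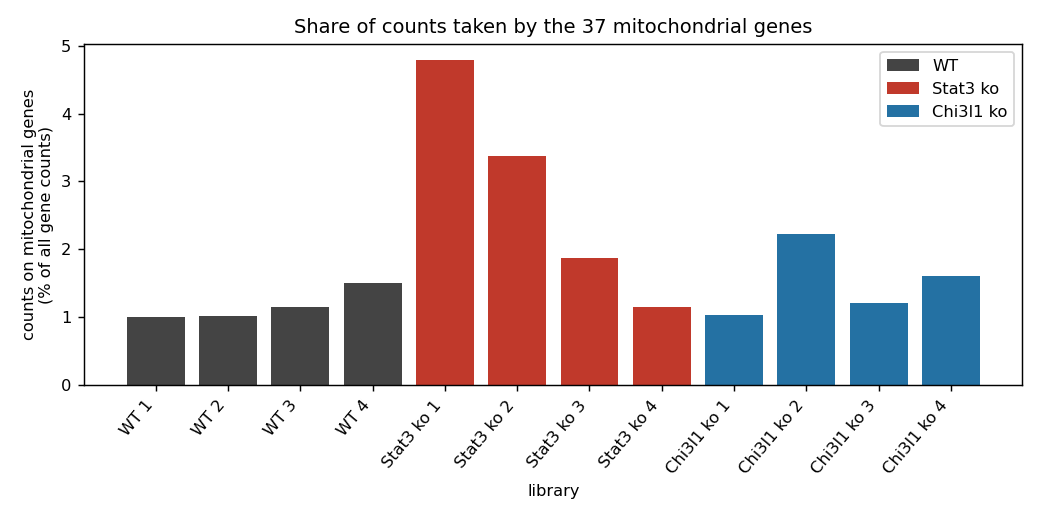
Counts on the 37 mitochondrial genes as a percent of all gene counts, 1 bar per library (dark grey WT, red Stat3 ko, blue Chi3l1 ko). Stat3 ko 1 and 2 reach 4.79% and 3.37%, and Stat3 ko 4 lies among the WT libraries.

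Relative to the WT mean, the 12 protein-coding genes other than mt-Atp8 shifted together within a library. Their median ratio was 4.39 in Stat3 ko 1 (3.43 to 8.12 over the genes), 3.19 in Stat3 ko 2 (2.51 to 8.19), 1.49 (1.05 to 1.82) in Stat3 ko 3 and 0.989 (0.754 to 1.18) in Stat3 ko 4. The Chi3l1 ko medians were 0.868, 2.04, 1.06 and 1.38, and in WT 0.832, 0.911, 1.01 and 1.27. The SD of log2(FPKM + 1) within a group had a median over the 13 protein-coding genes of 0.27 for WT, 1.02 for Stat3 ko and 0.55 for Chi3l1 ko, beside 0.14, 0.30 and 0.15 over the 13643 genes tested. The genotype contrasts below therefore rest on Stat3 ko libraries that differed widely from each other.

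Of the 37 genes, 28 had at least 1 FPKM in at least 4 libraries and were tested: all 13 mRNAs, both rRNAs and 13 tRNAs. For Stat3 ko against WT, which asks what changes in the gland when the Stat3 gene is targeted, limma on log2(FPKM + 1) called 2 of the 28 higher at an adjusted p under 0.05 and 0 lower, where 5.61% of all tested genes were called higher and 8.39% lower. Both were tRNA genes, mt-Te and mt-Tc. The estimated difference in log2(FPKM + 1) was above 0 for 28 of 28, with a median of 1.17 beside -0.02 over all tested genes, and 21 of 28 had an unadjusted p under 0.05, as did 34.1% of all tested genes in either direction. mt-Te and mt-Tq passed the filter only through knockout libraries, so this count describes those 28 and not the 9 genes left out.

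mt-Te gave the largest difference of the mitochondrial genes tested. Its counts were 1, 1, 1 and 1 in WT, 40, 53, 16 and 8 among Stat3 ko and 13, 29, 1 and 9 among Chi3l1 ko libraries, which correspond to 0.811, 0.648, 0.763 and 0.757 FPKM in WT, 34.8, 42.5, 11.05 and 6.14 among Stat3 ko and 7.58, 19.01, 0.727 and 7.31 among Chi3l1 ko libraries. Every Stat3 ko library lay above every WT library, and so did 3 of the 4 Chi3l1 ko libraries, while Chi3l1 ko 3 had the same single read as WT. The difference was 3.46 ± 0.71 (limma SE, n = 4 per group) for Stat3 ko against WT, with an adjusted p of 0.0130. mt-Te passed the filter on low values through knockout libraries alone, since all WT libraries lay below 1 FPKM, and its adjusted p was 0.0307 with no filter. The 4 reads of WT and 117 of Stat3 ko gave a ratio per library total of 29.9, with a 95% exact interval of 11.4 to 111 that covers counting error only. The difference was 2.41 with an adjusted p of 0.0875 when Stat3 ko 1 and 2 were both left out, which ended the call. Stat3 ko 1 and 2 held its highest values, so a smaller difference was bound to follow. The gain was larger than that of its neighbour, with mt-Te at 0.00101 to 0.00164 times the FPKM of mt-Nd6 in WT, 0.00965 to 0.0224 times among Stat3 ko and 0.0143, 0.0182, 0.00106 and 0.00867 times among Chi3l1 ko libraries. mt-Te was thus high relative to mt-Nd6 also in Stat3 ko 4, whose mitochondrial share was that of WT.

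mt-Tc rested on more reads. Its counts were 45, 60, 43 and 39 in WT, 539, 198, 97 and 96 among Stat3 ko and 67, 145, 61 and 67 among Chi3l1 ko libraries, or 38.2, 40.6, 34.3 and 30.9 FPKM in WT, 489.9, 166, 70.01 and 76.99 among Stat3 ko and 40.8, 99.4, 46.3 and 56.9 among Chi3l1 ko libraries. All Stat3 ko libraries stood above all WT libraries, as did all Chi3l1 ko libraries, where the lowest value of 40.8 lay just above the WT maximum of 40.6. The difference for Stat3 ko against WT was 1.99 ± 0.52 with an adjusted p of 0.0312. The call was lost without WT 1 (adjusted p = 0.0814), WT 2 (0.0550), WT 3 (0.0704), WT 4 (0.0813) or Stat3 ko 2 (0.0714), with no filter (0.0657), with only both compared groups in the fit (0.0831), and without Stat3 ko 1 and 2 together (0.0723). The difference was 1.40 without Stat3 ko 1 (adjusted p = 0.0244) and 1.02 without Stat3 ko 1 and 2, which held the highest values of mt-Tc. As a share of mitochondrial counts mt-Tc took 0.0146% to 0.0277% in WT, 0.0279% to 0.0626% in Stat3 ko and 0.0253% to 0.0302% in Chi3l1 ko. On this scale the lowest Stat3 ko value, 0.0279%, lay only just above the highest WT value, 0.0277%.

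**Figure D4:**
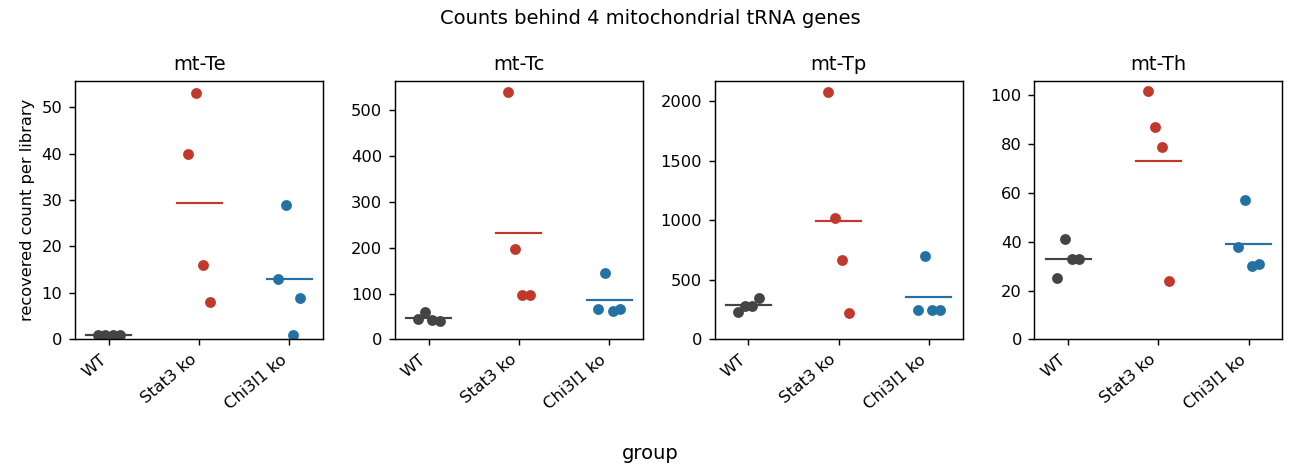
Recovered counts per library, not scaled for depth, of mt-Te, mt-Tc, mt-Tp and mt-Th by group, with a horizontal line at each group mean. mt-Te has 1 read in each WT library and 8 to 53 in Stat3 ko, and mt-Tp, the tRNA gene with the most reads, has Stat3 ko 4 at the level of WT.

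mt-Tp and mt-Th, the other tRNA genes with the most reads, did not pass the test. mt-Tp had 6573 counts over the 12 libraries, with 190.4, 188, 222 and 274 FPKM in WT, 1859.6, 844, 476 and 178 among Stat3 ko and 146, 475, 185 and 203 among Chi3l1 ko libraries. Stat3 ko 1, 2 and 3 and Chi3l1 ko 2 lay above all WT libraries and Stat3 ko 4 lay below them, and the difference was 1.48 ± 0.60 (adjusted p = 0.110). For mt-Th, with 580 counts, the values were 20.9, 27.4, 25.9 and 25.7 FPKM in WT, 91.3, 71.9, 56.2 and 18.96 among Stat3 ko and 22.8, 38.5, 22.4 and 25.9 among Chi3l1 ko libraries, and Stat3 ko 4 was the lowest of the 12 libraries. Its difference was 1.03 ± 0.39 (adjusted p = 0.0913).

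The remaining tRNA genes had few reads. The 9 other tested ones were mt-Tl1, mt-Ti, mt-Tq, mt-Tw, mt-Tn, mt-Ty, mt-Tr, mt-Ts2 and mt-Tl2, with 13 counts (mt-Tr) to 478 counts (mt-Tn) in all, differences of 0.14 to 1.96 and adjusted p-values of 0.0841 to 0.861. mt-Tm, for methionine, was below the filter. It had 0 reads in all WT libraries and 9, 1, 2 and 1 among Stat3 ko and 0, 6, 0 and 0 among Chi3l1 ko libraries. Setting the WT group at a floor of 3 counts gave a ratio per library total of 4.42 for Stat3 ko. This ratio takes no account of counting error in the 13 Stat3 ko reads, of which 9 came from Stat3 ko 1. mt-Tv, mt-Ta and mt-Tt had 5 to 7 counts in all. mt-Tf, mt-Ts1, mt-Td, mt-Tk and mt-Tg had 0 counts in all 12 libraries, and for each a count of 0 allows up to 3 counts per library. Of the 5 tRNA genes inside the span that is copied on chromosome 1, 4 had 0 counts in all libraries, against 1 of the 17 outside it. The fifth gene inside it, mt-Tr, had 13 counts.

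Among the rRNAs, mt-Rnr1 of the small ribosomal subunit stood at 120.0, 153, 125 and 161 FPKM in WT, 688, 357, 248 and 149 among Stat3 ko and 100.4, 259, 189.7 and 159.9 among Chi3l1 ko libraries. mt-Rnr2 of the large subunit stood at 52.4, 82.2, 60.1 and 68.4 FPKM in WT, 593, 300.1, 176 and 77.8 among Stat3 ko and 46.2, 230.1, 93.1 and 79.1 among Chi3l1 ko libraries. Both were highest in Stat3 ko 1 and 2, followed by Chi3l1 ko 2 and Stat3 ko 3, and Stat3 ko 4 lay inside the WT range for both. The differences were 1.15 ± 0.41 for mt-Rnr1 (adjusted p = 0.0774) and 1.76 ± 0.58 for mt-Rnr2 (adjusted p = 0.0635). The ratio of mt-Rnr2 to mt-Rnr1 was 0.436, 0.537, 0.482 and 0.426 in WT, 0.862, 0.842, 0.707 and 0.521 among Stat3 ko and 0.460, 0.889, 0.491 and 0.494 among Chi3l1 ko libraries. It was therefore higher in the libraries with the highest mitochondrial share, Stat3 ko 1, 2 and 3 and Chi3l1 ko 2, than in the others, which is a description with no test. Per length, mt-Rnr1 and mt-Rnr2 stood below mt-Nd5 in every library. Whether the libraries were made from poly(A) RNA or after rRNA removal is not given in the sources used here.

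In complex I, which passes electrons from NADH to ubiquinone, 7 subunits are mitochondrially encoded and 0 were called. mt-Nd1 stood at 1449, 1624, 1735 and 2251 FPKM in WT, 6049, 4427, 2463 and 1547 among Stat3 ko and 1544, 2985, 1853 and 2172 among Chi3l1 ko libraries. mt-Nd2 stood at 741, 843, 837 and 1067 FPKM in WT, 4251, 2686, 1416 and 943 among Stat3 ko and 791, 1899.6, 959 and 1257 among Chi3l1 ko libraries. Both were highest in Stat3 ko 1 and 2, with Chi3l1 ko 2 above all WT libraries and Stat3 ko 4 within the WT range. Antiporter-like subunits mt-Nd4 and mt-Nd5 behaved alike, with 565, 666, 628 and 778 FPKM in WT, 3653, 2146, 995 and 708 among Stat3 ko and 544, 1474, 706 and 951 among Chi3l1 ko libraries for mt-Nd4. The values of mt-Nd5 were 351, 361, 447 and 594 FPKM in WT, 1959, 1116, 762 and 433 among Stat3 ko and 413, 783, 415 and 628 among Chi3l1 ko libraries. In both genes Stat3 ko 4 overlapped WT and Stat3 ko 3 lay above every WT library. mt-Nd6, the only mRNA encoded on the minus strand, stood at 496, 578, 605 and 749.7 FPKM in WT, 2567, 1900.4, 933 and 636 among Stat3 ko and 530.1, 1042, 682 and 843 among Chi3l1 ko libraries. It overlaps mt-Nd5 by 14 bases on the opposite strand, and whether the authors counted by strand is not given in the sources used here, so reads of a gene and of the transcript opposite it cannot be told apart. The differences of these 5 genes were 0.87 ± 0.38 for mt-Nd1, 1.19 ± 0.42 for mt-Nd2, 1.23 ± 0.47 for mt-Nd4, 1.10 ± 0.40 for mt-Nd5 and 1.12 ± 0.39 for mt-Nd6, with adjusted p-values of 0.0745 (mt-Nd6) to 0.133 (mt-Nd1).

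The complex I genes inside the copied span were low throughout. mt-Nd3 stood at 5.63, 4.62, 6.21 and 5.26 FPKM in WT, 19.5, 18.9, 6.43 and 6.39 among Stat3 ko and 4.51, 13.5, 7.35 and 7.25 among Chi3l1 ko libraries. All Stat3 ko libraries of mt-Nd3 lay above all WT libraries, by 6.39 over 6.21 at the closest, and among tested genes mt-Te, mt-Tc and mt-Nd3 were the 3 of 28 with this separation, which 9.67% of all tested genes showed. The mt-Nd3 difference was 0.93 ± 0.38 (adjusted p = 0.110). mt-Nd4l stood at 3.58, 3.31, 4.79 and 6.33 FPKM in WT, 36.6, 18.5, 8.18 and 4.10 among Stat3 ko and 2.98, 12.9, 4.22 and 8.68 among Chi3l1 ko libraries, with Stat3 ko 1 and 2 and then Chi3l1 ko 2 highest and a difference of 1.34 ± 0.57 (adjusted p = 0.124).

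mt-Cytb, the only mitochondrially encoded subunit of complex III, shares no window with an annotated nuclear transcript. Its values were 1469, 1548, 1599 and 2134 FPKM in WT, 8114, 5153, 2489 and 1670.5 among Stat3 ko and 1539.7, 3584, 1719 and 2302 among Chi3l1 ko libraries. Stat3 ko 4 overlapped WT, and Stat3 ko 1 to 3 and Chi3l1 ko 2 and 4 lay above every WT library. The difference was 1.12 ± 0.45 (adjusted p = 0.104). As a share of mitochondrial counts it was among the steadiest genes, at 17.2% to 18.9% over the 12 libraries.

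In complex IV, the enzyme that reduces oxygen, mt-Co1 stood at 2149.6, 2125, 2377 and 3460.2 FPKM in WT, 13106, 7310.4, 3877 and 2452 among Stat3 ko and 2144, 5183, 2545 and 3594 among Chi3l1 ko libraries. Of the Stat3 ko libraries, 3 exceeded every WT library and Stat3 ko 4 did not, and the difference was 1.15 ± 0.47 (adjusted p = 0.111). The values of mt-Co2 were 19.96, 25.4, 29.3 and 37.4 FPKM in WT, 111, 103, 34.5 and 26.3 among Stat3 ko and 24.2, 56.7, 32.3 and 31.1 among Chi3l1 ko libraries, with a difference of 1.03 ± 0.45 (adjusted p = 0.132). Those of mt-Co3 were 14.3, 13.9, 20.7 and 25.7 FPKM in WT, 77.4, 153, 22.4 and 18.6 among Stat3 ko and 18.6, 37.8, 22.9 and 21.2 among Chi3l1 ko libraries, with a difference of 1.35 ± 0.57 (adjusted p = 0.121). mt-Co3 was the one of these with its highest value in Stat3 ko 2 rather than Stat3 ko 1, and its ratio to mt-Co2 was 1.49 in that library against 0.546 to 0.771 in the other 11. Both genes lie in the copied span.

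For ATP synthase, mt-Atp6, which forms part of the proton channel, stood at 18.6, 21.6, 22.97 and 25.1 FPKM in WT, 95.1, 114, 23.1 and 16.6 among Stat3 ko and 17.01, 43.3, 21.3 and 27.5 among Chi3l1 ko libraries. Stat3 ko 1 and 2 and Chi3l1 ko 2 were the highest and Stat3 ko 4 the lowest of the 12 libraries, and the difference was 1.02 ± 0.55 (adjusted p = 0.211). mt-Atp8, which overlaps mt-Atp6 by 43 bases, stood at 0.274, 22.8, 1.03 and 1.28 FPKM in WT, 6.18, 1.90, 3.27 and 1.04 among Stat3 ko and 0.591, 2.88, 0.737 and 5.22 among Chi3l1 ko libraries. WT 2 was the highest library by far, and the difference between the groups was 0.09 ± 0.83 (adjusted p = 0.948). The sign of the mt-Atp8 difference turned with quantile normalization, with edgeR and DESeq2, without WT 1, WT 3, WT 4 or Stat3 ko 1, and without Stat3 ko 1 and 2 together.

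**Figure D5:**
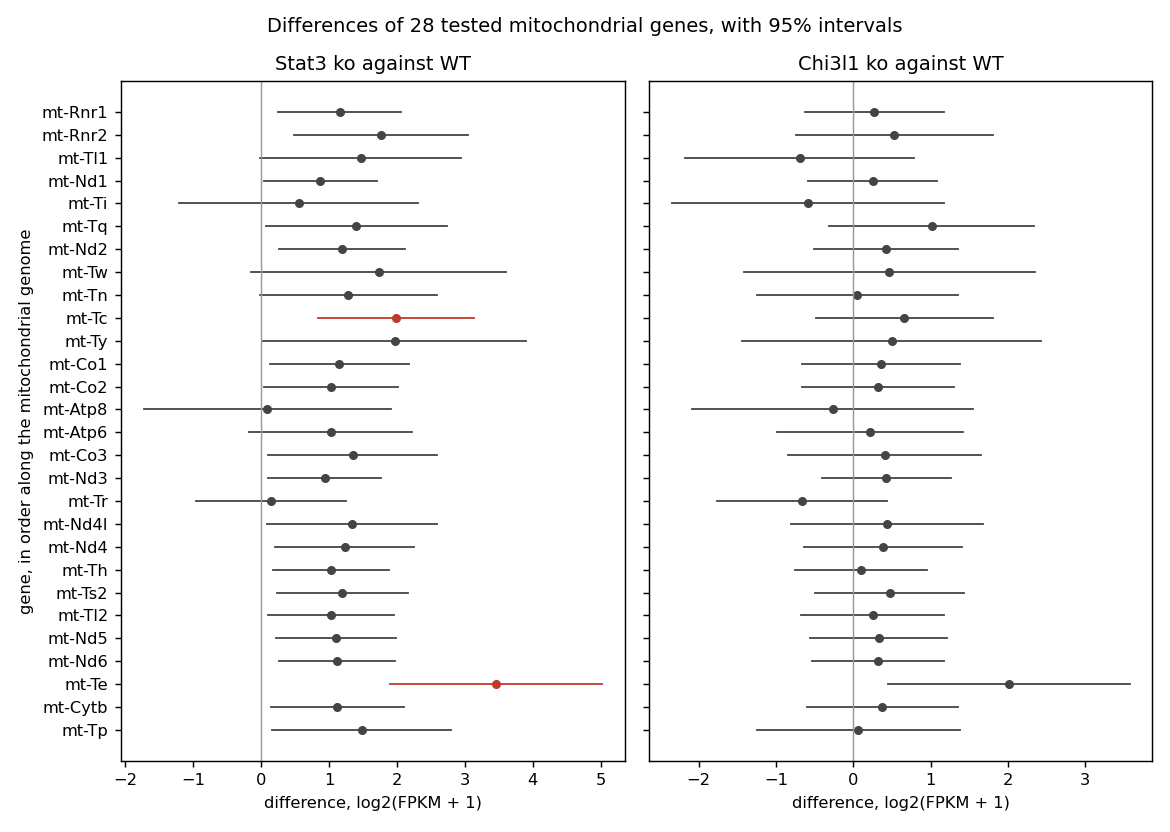
Differences in log2(FPKM + 1) with 95% intervals of the 28 tested mitochondrial genes in genome order, for Stat3 ko against WT (left) and Chi3l1 ko against WT (right), with called genes in red. At left all points lie above 0 and mt-Te and mt-Tc are called, and at right mt-Te is the highest point and no gene is called.

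The number of mitochondrial genes called for Stat3 ko against WT depended on the library Stat3 ko 4 and on the tool. Without Stat3 ko 4, 23 of 28 were called higher, among them 12 of 13 mRNAs (all but mt-Atp8) and both rRNAs, where 10.8% of all tested genes were called higher. Without Stat3 ko 1 and 2 together, 0 were called at a background of 2.7%, and the median difference of the mRNAs was 0.29 in place of 1.12. These were the Stat3 ko libraries with the highest median ratios to the WT mean, 4.39 and 3.19. Leaving out both therefore had to lower the differences, and the result only describes their weight. edgeR on the recovered counts called 10 of 23, namely mt-Nd2, mt-Nd4, mt-Nd5, mt-Nd6, mt-Co3, both rRNAs, mt-Tc, mt-Te and mt-Tp, at a background of 10%. DESeq2 called 21 of 32 at a background of 8.64%, including 12 of 13 mRNAs with adjusted p-values up to 0.0337. In each comparison DESeq2 gave no adjusted p to some of the 32, among them mt-Atp8, the remaining mRNA. Its background shares are likewise of all 31268 genes, with or without an adjusted p. In the authors' deposited table, which lists only genes with an unadjusted p under 0.05, 26 of the 37 were listed as higher and 18 of these had the authors' adjusted p under 0.05, beside 7.08% and 4.24% of the genes in the expression table. The authors' deposited table gave mt-Te a log2 fold change of 4.98 with an adjusted p of 4.5e-05 and mt-Rnr2 one of 2.12 with an adjusted p of 0.00117.

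For Chi3l1 ko against WT, which asks what changes when the gene of the secreted protein is targeted, limma called 0 of the 28, at a background of 0.00733% called in either direction and 0.0% higher. edgeR called 0 of 23 at a background of 0.0% higher and DESeq2 0 of 32 at 0.0032%. With limma 1 of 28 had an unadjusted p under 0.05, beside 1.63% of all tested genes. That gene was mt-Te, with a difference of 2.01 ± 0.71 (95% interval 0.45 to 3.57, adjusted p = 0.9998). Its 52 reads in Chi3l1 ko against 4 in WT gave a ratio per library total of 11.9 (95% exact interval 4.37 to 45.2, counting error only). The median difference of the 28 was 0.34, with 24 above 0, beside 0.00 over all tested genes. The mRNAs ran from -0.27 for mt-Atp8 to 0.44 for mt-Nd4l, and the interval of mt-Co1 was -0.67 to 1.39, so a change of either sign was within reach of the error. mt-Tc was the one tested mitochondrial gene with all Chi3l1 ko libraries above all WT libraries, which 1.12% of tested genes showed, and its difference was 0.66 ± 0.52. The authors' deposited table listed 4 mitochondrial genes as higher, mt-Te at 3.56 (adjusted p = 0.308), mt-Tc at 0.77, mt-Nd2 at 0.50 and mt-Nd4 at 0.49, where 0.627% of genes in the expression table were listed as higher. Both knockouts were compared with the same 4 WT libraries, so the 2 sets of differences are not independent.

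The knockouts were also compared directly. limma called 0 of the 28, at a background of 5.19% called higher in Stat3 ko, and 4 of 28 had an unadjusted p under 0.05, beside 31.7% of all tested genes. The median difference was 0.82, with 28 above 0. The lowest adjusted p was that of mt-Tl1, a tRNA for leucine, at 0.0571 with a difference of 2.16 ± 0.67, from counts of 30, 26, 17 and 13 in Stat3 ko and 6, 17, 0 and 3 in Chi3l1 ko. mt-Te differed by 1.44 ± 0.71 (adjusted p = 0.188), so its difference from WT was not shown to be larger in Stat3 ko than in Chi3l1 ko. Without Stat3 ko 4, 9 of 28 were called, at a background of 9.1%, and DESeq2 called 4 of 32 (mt-Tp, mt-Tc, mt-Co3 and mt-Th) at 7.84%.

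The nuclear genes of the same complexes had smaller median differences than the mitochondrial mRNAs, and none of those listed was called by limma. Over all tested genes, 5.61% were called higher for Stat3 ko against WT and 8.39% lower. In that comparison 0 of 36 nuclear complex I subunits, 0 of 4 complex II subunits, 0 of 9 complex III subunits, 0 of 10 complex IV subunits and 0 of 15 ATP synthase subunits passed the test. Their median differences were 0.49, 0.66, 0.60, 0.37 and 0.24, beside 1.12 for the 13 mitochondrial mRNAs. Their summed FPKM were highest in Stat3 ko 1, with 2860 for complex I against 1384 to 1702 in WT, with Stat3 ko 2 at 2353 and Chi3l1 ko 2 at 2196. The 3 libraries with the highest mitochondrial share thus also had the highest summed complex I level. The other Stat3 ko libraries did not follow the share. Stat3 ko 3 stood at 1438, inside the WT range, and Stat3 ko 4 at 1733, above every WT library. For Chi3l1 ko against WT the medians of complexes I to IV were 0.03 to 0.11, and 0 genes of the 5 lists were called.

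The nuclear genes that make and read mitochondrial RNA were mostly not called for Stat3 ko against WT. Of 14 genes of transcription and replication 0 passed the test (median 0.14), among them Tfam and Polrmt, the packaging factor and the RNA polymerase of the organelle. 0 of 22 genes for charging mitochondrial tRNAs passed (median 0.01), namely aminoacyl-tRNA synthetases and the amidotransferase subunits Qrsl1, Gatb and Gatc. 0 of 76 mitochondrial ribosomal protein genes (0.02) and 0 of 10 regulators of biogenesis (0.01) passed. Of 31 genes of RNA processing and stability 3 rose and 1 fell (median 0.14), at the background of 5.61% called higher and 8.39% lower. Trit1, which modifies tRNAs next to the anticodon, had 6.90 ± 0.744 FPKM in WT and 11.7 ± 3.74 in Stat3 ko (difference 0.65 ± 0.17, adjusted p = 0.0286). Mrm1, an rRNA methyltransferase, rose by 0.38 ± 0.10 (adjusted p = 0.0335), and Gtpbp3, which modifies the tRNA wobble base, fell by 0.42 ± 0.12 (adjusted p = 0.0438). The third gene of the list that rose was Angel2, by 0.27 ± 0.082 (adjusted p = 0.0471). In the list of the mitochondrial and integrated stress response 1 of 11 fell (median 0.16), beside 8.39% of all tested genes called lower. That gene was Trib3, a pseudokinase induced by ATF4, with 21.98 ± 1.66 FPKM in WT and 7.52 ± 1.80 in Stat3 ko (difference -1.45 ± 0.15, adjusted p = 0.000243).

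Markers of other cell types differed among the libraries, some in the order of the mitochondrial share and others not. Their part in these results was not tested. Over all tested genes, 5.61% were called higher for Stat3 ko against WT and 8.39% lower, which is the background for the calls below. The summed FPKM of 15 adipocyte markers was 222 to 790 in WT, 14389, 2150.4, 1685 and 1466 among Stat3 ko and 378, 2246, 348 and 453 among Chi3l1 ko libraries, and 7 of 14 tested markers rose in Stat3 ko. Those of 8 brown adipocyte markers, from a cell type dense in mitochondria, summed to 9.56 to 70.8 in WT, 1185, 1227, 275 and 144 among Stat3 ko and 11.7, 709, 14.7 and 21.0 among Chi3l1 ko libraries, with 0 of 6 called. Ucp1, the uncoupling protein that defines them, was listed at 0 in WT 2 and reached 176, 357 and 74.3 FPKM in Stat3 ko 1 to 3, with Chi3l1 ko 2 at 97.7, against 0 to 2.30 in the other libraries. Skeletal muscle markers (15 genes, 0 of 14 called) followed a different order, at 360, 12137, 59.2 and 6904 in Stat3 ko, 17.5 to 3295 in WT and 45.4 to 10162 in Chi3l1 ko. The mitochondrial shares of these 4 Stat3 ko libraries were 4.79%, 3.37%, 1.88% and 1.15%. The 10 epithelial markers summed to 1177, 1330, 2572 and 2852 in Stat3 ko against 2344 to 3343 in WT and 2149 to 2888 in Chi3l1 ko, and 2 of 10 fell, Elf3 and Spint1. T cell markers (10 genes) summed to 16.9 to 36.99 in WT, 45.8, 285, 163 and 29.03 among Stat3 ko and 20.3 to 36.3 among Chi3l1 ko libraries, and 3 of 10 rose in Stat3 ko, Cd2, Cd8a and Cd8b1. B cell markers (8 genes) summed to 8.999 to 20.8 in WT, 55.3, 667, 273 and 32.4 among Stat3 ko and 10.4 to 30.2 among Chi3l1 ko libraries, and 2 of 4 tested rose, Ighm and Cd22. Both sums were highest in Stat3 ko 2. Immediate-early and heat shock genes (10 genes), which respond to handling of tissue, summed to 309 to 368 in WT, 162, 204, 228 and 280 among Stat3 ko and 278 to 323 among Chi3l1 ko libraries, and 3 of 9 tested fell in Stat3 ko, Fos, Hspa1a and Hspa1b. Their order over the Stat3 ko libraries was the reverse of that of the mitochondrial share. Of erythroid markers 0 of 4 tested were called, and of genes whose RNA has no poly(A) tail 0 of 6. The glands labelled mammary did carry these epithelial markers in every library, and no gene of the cell type marker lists was at 0 in all libraries.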

How the data were processed

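RNA sequencing libraries of 4 WT, 4 Stat3 ko and 4 Chi3l1 ko mammary glands were used, grouped by the genotype in the labels. Tools listed by the submitters' processing notes were Trimmomatic, HTSeq, STAR, limma and edgeR (no versions), with GRCm38 and mm10 as builds. Read length, strand and the treatment of multiply matching reads are not given in the sources used here. The authors deposited FPKM per gene with gene lengths, and comparison tables with raw counts, log2 fold changes and p-values, adjusted and not, for genes with an unadjusted p under 0.05. The product of FPKM, gene length and a library total was whole to within 0.000104 read, and 0 of 55832 deposited counts differed from them.

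log2(FPKM + 1) of the 13643 genes that reached 1 FPKM in 4 or more libraries was fitted with limma 3.58.1 (trended empirical Bayes, 3 group means, two-sided, R 4.3.3), with Benjamini-Hochberg adjustment over all of them and calls at an adjusted p under 0.05. Fold changes on this scale understate those of low genes. Alternatives were a pseudocount of 0.1, other filters and scalings, array weights, only both compared groups, edgeR 4.0.16, DESeq2 1.42.0 and leaving out each library. Leaving out Stat3 ko 1 and 2 together was chosen after seeing the data. They had the lowest epithelial markers and also the highest mitochondrial shares. The fit was tested on simulated data.

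All mitochondrial genes are accounted for. Values per library are given for the rRNAs, the mRNAs, called genes, mt-Te and the 3 tRNA genes with the most counts, and from other lists up to 3 called genes with the lowest adjusted p are named, markers apart. Ucp1, Angel2, mt-Tm and mt-Tl1 were singled out after their values were seen. The members and lists were chosen with earlier results of these data known. Sequences were compared among annotated GENCODE M21 transcripts, by exact windows of 50 bases and ungapped alignment.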

Additional observations from a re-analysis of the deposited data

Results flagged for a closer look

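Of 84 gene and group combinations (28 tested mitochondrial genes in 3 groups of 4 libraries), 3 had 1 library standing apart. Its gap to the nearest other, divided by the group's range of log2(FPKM + 1), exceeded Dixon's 95% critical value. mt-Te in WT, with 1 read in each library, is among the 84 but was not examined. Chance gives about 1 in 20 for continuous values, which does not hold for groups of 0 or 1 read. For mt-Tl1, WT 2 stood above the other WT libraries with 14.3 FPKM from 24 counts, against 4 or 5 counts in the others, at a ratio of 0.841. For mt-Tq, WT 2 had 1 read and the other WT libraries 0, which gives a ratio of 1. For mt-Tr, Chi3l1 ko 3 had 1 read and the other Chi3l1 ko libraries 0, again with a ratio of 1. The values of mt-Tq and mt-Tr here each rest on 1 read, and 1 read beside 0 in the others always gives a ratio of 1.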

How the results depend on the processing

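For Stat3 ko against WT, 2 mitochondrial and 1911 of all tested genes were called. These counts became 1 and 1149 with no filter, 10 and 2955 with edgeR, 21 and 4392 with DESeq2, 1 and 506 with only both compared groups in the fit, and 0 and 911 without Stat3 ko 1 and 2 together, an alternative chosen after seeing the data. Leaving out each library in turn gave 1 to 23 mitochondrial and 571 to 3252 of all genes. For Stat3 ko against Chi3l1 ko, 0 mitochondrial and 1799 of all genes were called, with 1119 of all genes under no filter, 505 with only both groups, 4 and 4051 with DESeq2, and 979 of all genes without Stat3 ko 1 and 2. Leaving out each library gave 0 to 9 mitochondrial and 611 to 2890 of all genes. For Chi3l1 ko against WT, 1 gene and 0 mitochondrial ones were called, against 7 genes with DESeq2 and 2 with array weights, and 0 mitochondrial genes in every alternative run. Mean mitochondrial shares without 1 library were 1.06% to 1.23% in WT, 2.13% to 3.35% in Stat3 ko and 1.28% to 1.68% in Chi3l1 ko. Stat3 ko 1 and 2 held the highest mitochondrial shares, so leaving out both had to lower most mitochondrial differences. The cause of the shifts between settings was not tested.

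Differences that turned sign belonged to genes that limma did not call with all libraries, though mt-Atp6 (Stat3 ko against WT) and mt-Co3 (Stat3 ko against Chi3l1 ko) were called by DESeq2, and mt-Atp6 also without Stat3 ko 4. For Stat3 ko against WT these were mt-Ti with array weights (-0.24), mt-Atp8 with quantile normalization (-0.073) and edgeR (-1.06), and mt-Tr with array weights (-0.035). Leaving out each library gave -0.15 to 1.09 for mt-Ti, -0.39 to 1.02 for mt-Atp8 and -0.15 to 0.48 for mt-Tr. Without Stat3 ko 1 and 2 together the values were -0.15 for mt-Atp6, -1.06 for mt-Ti, -0.22 for mt-Atp8 and -0.48 for mt-Tr. For Chi3l1 ko against WT, mt-Tp turned with array weights (-0.16), and leaving out each library gave -0.29 to 0.27 for mt-Tp, -0.025 to 0.41 for mt-Atp6, -0.31 to 0.34 for mt-Tn, -0.067 to 0.18 for mt-Th, -0.062 to 0.90 for mt-Ty and -0.75 to 0.66 for mt-Atp8. For Stat3 ko against Chi3l1 ko, leaving out each library gave -0.011 to 0.91 for mt-Tq. Without Stat3 ko 1 and 2 together the differences were -0.042 for mt-Co1, -0.084 for mt-Cytb, -0.088 for mt-Nd1, -0.0063 for mt-Nd2, -0.030 for mt-Nd4, -0.18 for mt-Co2, -0.37 for mt-Atp6, -0.24 for mt-Co3, -0.089 for mt-Nd4l, -0.13 for mt-Ty, -0.22 for mt-Nd3, -0.47 for mt-Ti and -0.25 for mt-Tq. No paired analysis was possible because the labels give no replicate numbers that groups share. Depth limits the tRNA genes, most of which had few reads per library. Their reads also cannot be divided among mature tRNA, precursors and transcripts of the opposite strand. Nuclear copies limit mt-Co1, mt-Co2, mt-Atp6, mt-Co3, mt-Nd3, mt-Nd4l and mt-Nd4, and mt-Atp8 where it overlaps mt-Atp6.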
